A study of Mus musculus with 14 samples.

Results

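The hepatocyte identity transcription factors described here are 9 genes chosen by name, Hnf4a, Foxa1, Foxa2, Foxa3, Cebpa, Cebpb, Nr5a2, Onecut1 and Prox1, out of 21878 genes in the tables. All 9 passed the filter on low counts that left 14100 tested genes. RNA was sequenced from mouse (C57BL/6) hepatocytes in 14 libraries, 2 for each of 7 groups. The cultured groups were hepatocytes kept in BM for 1 day (called BM 1D), for 3 days (called BM 3D) or for 3 weeks (called BM 3W), BM hepatocytes labelled Yap-/- after 3 weeks (BM 3W Yap-/-) and LBDXL hepatocytes after 3 weeks (LBDXL 3W). The uncultured groups were freshly isolated Yap-/- hepatocytes (FH Yap-/-) and freshly isolated hepatocytes (FH). By its title the study concerns keeping mechanical tension from activating YAP, a transcriptional co-activator, so as to preserve hepatocyte functions in culture. The labels give neither the composition of BM and LBDXL, nor how Yap was deleted, nor the age of the mice. Nor do they state whether the pair of libraries in a group represents different mice or dishes, and the p-values below therefore cover only the spread between samples, which may be technical.

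Hepatocytes hold their identity through a small network of DNA-binding factors that bind each other's genes and the genes of liver function. HNF4A is a nuclear receptor at the centre of that network, the FOXA proteins open chromatin at liver enhancers, and the C/EBP proteins are leucine zipper factors that drive metabolic and acute phase genes. NR5A2, ONECUT1 (also called HNF6) and PROX1 act beside them in bile acid metabolism, in the choice between hepatocyte and bile duct fates, and in liver growth.

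Levels are counts relative to library size (CPM) scaled by TMM, a method that sets libraries to a common level over most genes, and libraries carry the numbers of the labels. A gene was called, and is said to have risen or fallen, where edgeR's quasi-likelihood test gave an adjusted p under 0.05 over all 14100 genes. Log2 fold changes carry a standard error worked back from that test, as the absolute log2 fold change divided by the square root of the F statistic. Library totals ran from 15501005 to 21220365 counts, and TMM factors from 0.648 to 1.69. Yap1 averaged 7.20 ± 0.770 CPM in BM 3W Yap-/-, against 87.9 ± 10.8 CPM in BM 3W. In fresh cells it averaged 24.8 ± 2.37 CPM in FH Yap-/-, against 92.6 ± 7.03 CPM in FH (SD, n = 2 each). The libraries of the cultured groups stood apart from each other more than those of fresh cells: chi-square per degree of freedom between the libraries of a group was 71.8 to 247 in culture, against 4.19 in FH Yap-/- and 5.72 in FH.

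The 2 BM 3W libraries also differed in their hepatocyte markers. Summed over 10 hepatocyte markers such as Alb and Cps1, BM 3W library 2 had 8236 CPM and library 1 had 45961 CPM. In BM 1D the sum was 74330 to 80194 CPM, and in BM 3D it was 55754 to 118679 CPM. The sums were 198924 to 251046 CPM in LBDXL 3W, 157220 to 169755 CPM in BM 3W Yap-/-, 292004 to 300305 CPM in FH Yap-/- and 254161 to 258761 CPM in FH. None of the 10 was at 0 in any group, and the sums were lowest in BM 3W. The stellate cell, cholangiocyte and Kupffer cell sums were highest there. The 12 stellate cell and fibroblast markers summed to 292 to 527 CPM in LBDXL 3W, 472 to 547 CPM in BM 3W Yap-/-, 11563 to 15087 CPM in BM 3W and 95.9 to 118 CPM in FH. The 12 cholangiocyte markers summed to 42.6 to 143 CPM in LBDXL 3W, 186 to 244 CPM in BM 3W Yap-/-, 4905 to 5616 CPM in BM 3W and 46.0 to 49.9 CPM in FH, where Cftr and Cldn4 were among those with no count. The 10 Kupffer cell and macrophage markers summed to 2.38 to 2.90 CPM in LBDXL 3W, where Clec4f and Timd4 had no count, 212 to 217 CPM in BM 3W Yap-/-, 1111 to 1200 CPM in BM 3W and 88.2 to 123 CPM in FH. The 12 endothelial markers summed to 258 CPM in LBDXL 3W library 1 and 25.8 CPM in library 2, and to 312 to 361 CPM in BM 3W and 123 to 156 CPM in FH. Of the endothelial markers 4 were higher and 6 lower in BM 3W than in FH, where 59.1% of all tested genes were called. In that comparison 8 Kupffer cell and macrophage markers were higher and 2 lower. The 12 stellate cell markers and the 10 tested cholangiocyte markers were all higher. In such bulk samples, fewer hepatocytes and less RNA of a factor per hepatocyte cannot be told apart, and the part of other cell types in the results below was not tested.

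In BM culture the factors fell from the first day. At 1 day 8 of the 9 had fallen against FH, where 43.8% of all tested genes were called and 20.2% fell. The same number had fallen at 3 days, with 40.5% of genes called and 17.9% falling, and at 3 weeks, with 59.1% called, 33% higher and 26.1% lower. The median log2 fold change of the 9 was -2.30, -1.40 and -2.66 at 1 day, 3 days and 3 weeks, beside 0.17, 0.17 and 0.17 over all tested genes. Foxa2 was the member not called at any of these times. These comparisons share the FH libraries. Scaled by total counts, 6, 3 and 5 members had fallen at those times, and Foxa2 was called higher at each. That scaling called 7064, 7575 and 9282 of the 14100 genes higher and 1351, 1038 and 1364 lower. Relative to the median of all genes under it, Foxa2 was at -0.33, -0.47 and -0.60. Calls at 3 days were the least stable: fewer members fell without BM 3D library 1 or without FH library 1. Fewer of all tested genes fell in those fits too.

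In the other 3-week cultures 5 or 6 of the 9 were called against fresh cells. In LBDXL 3W 5 members had fallen against FH (Foxa1, Cebpa, Cebpb, Onecut1 and Prox1), where 21.3% of genes were called and 9.6% fell. That count rests on few libraries. It was lower without either library of FH, FH Yap-/- or LBDXL 3W, and without BM 3W library 2. Fewer of all tested genes were called in those fits too, except without LBDXL 3W library 2. In BM 3W Yap-/- 6 members had fallen against FH Yap-/- (Foxa1, Foxa2, Cebpa, Cebpb, Nr5a2 and Onecut1). There 36.3% of genes were called, 19.8% higher and 16.5% lower. Fewer members, and fewer of all tested genes, were called without FH Yap-/- library 1. Against FH, BM 3W Yap-/- also had 6 lower (Foxa1, Cebpa, Cebpb, Nr5a2, Onecut1 and Prox1), with 39.9% of genes called and 17.7% falling. Without BM 3W Yap-/- library 2 fewer members and fewer of all tested genes were called.

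Set against BM 3W itself, both other 3-week cultures held more of the factors. In LBDXL 3W 6 members were higher than in BM 3W (Hnf4a, Foxa3, Cebpa, Cebpb, Nr5a2 and Prox1) and 0 lower, where 44.8% of genes were called and 21.1% were higher. By total counts 3 were higher (Hnf4a, Foxa3 and Cebpa) and 1 lower (Foxa2), and by limma on FPKM 2 were higher (Hnf4a and Foxa3) and 2 lower (Foxa1 and Foxa2). Over all genes, total counts called 1135 of 14100 higher and 6650 lower. Limma on log2(FPKM + 1) called 1109 of 11539 higher and 5653 lower. In BM 3W Yap-/- 4 were higher than in BM 3W (Hnf4a, Foxa3, Cebpa and Cebpb) and 0 lower, where 31.6% of genes were called, 15% higher and 16.6% lower. Total counts and FPKM each left 2 of these. There total counts called 798 of 14100 genes higher and 5053 lower, and limma on log2(FPKM + 1) 865 of 11539 higher and 4496 lower. These 2 comparisons share the BM 3W libraries. Hnf4a and Foxa3 kept their calls in both under each of the 24 alternative analyses, while the calls of Cebpa in BM 3W Yap-/- (adjusted p = 0.04995) and of Prox1 in LBDXL 3W (adjusted p = 0.0402) each ended under 14 of them. Without BM 3W library 2, which had the low hepatocyte sum, fewer members were called higher in either group. Fewer of all tested genes were called higher as well. Hnf4a was then higher by 2.25 in LBDXL 3W and 1.73 in BM 3W Yap-/- on the log2 scale, and Foxa3 by 1.92 and 2.50 in those groups. Between LBDXL 3W and BM 3W Yap-/- no member was called, where 6.94% of genes were, 2.61% higher and 4.33% lower. There 2 members, Cebpa (log2 fold change 1.05 ± 0.38) and Nr5a2 (0.67 ± 0.23), were under 0.05 before adjustment by edgeR's test, and DESeq2 called 0. Without LBDXL 3W library 1, Cebpa was called.

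**Figure D1:**
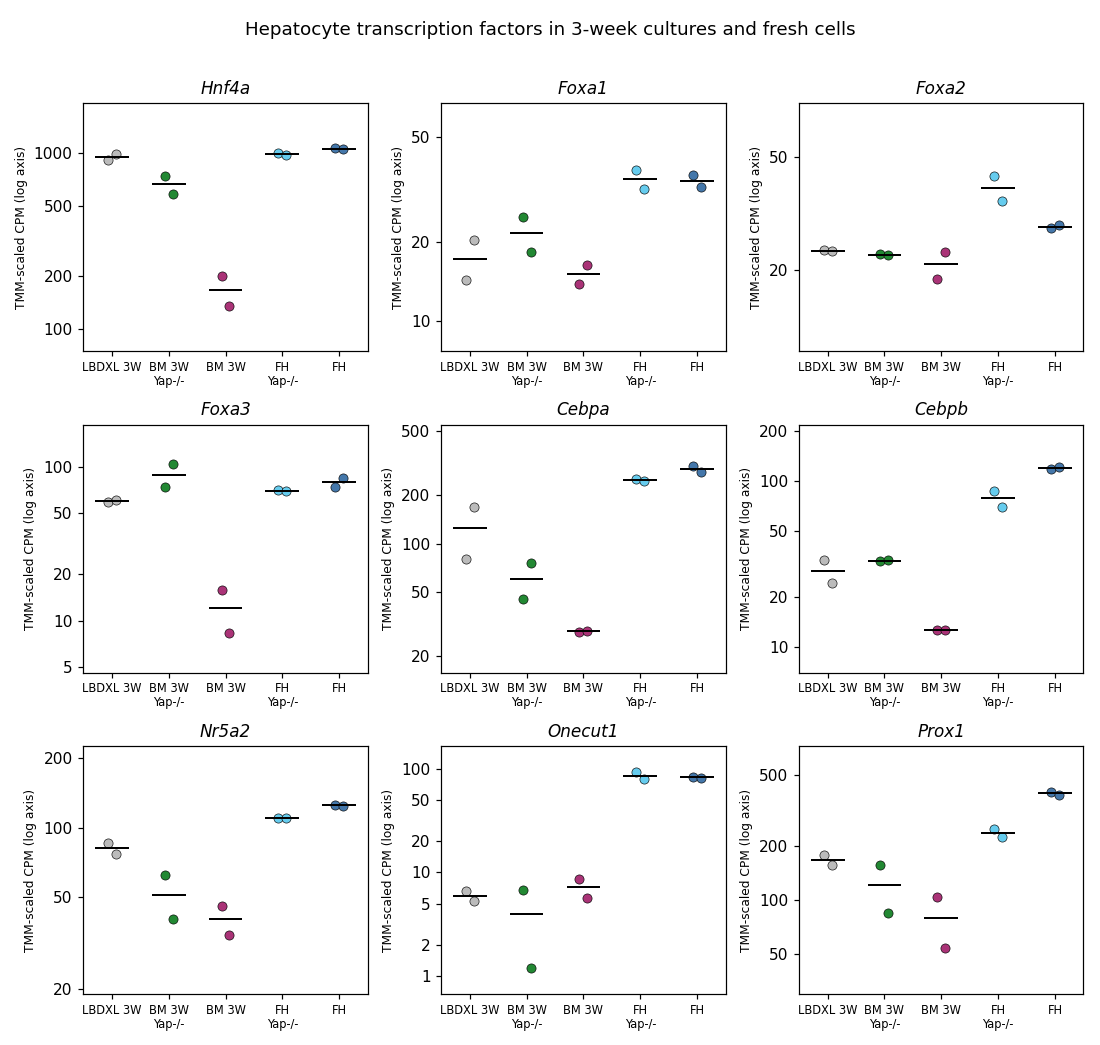
TMM-scaled CPM (log axis) of each factor in the 3-week cultures and in fresh cells, with 1 point per library and a bar at the mean of 2. Hnf4a was at 919 and 993 CPM in LBDXL 3W and at 742 and 590 CPM in BM 3W Yap-/-, above the 201 and 135 CPM of BM 3W, while Onecut1 stayed under 9 CPM in all 3 cultures.

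Foxa3 and Cebpa had, after Hnf4a, the largest changes of the 9 between LBDXL 3W and BM 3W and were also called between BM 3W Yap-/- and BM 3W, so their promoters are shown. Each is the 200 bases before an annotated start, 5′ to 3′ on the gene's strand, from RefSeq (GRCm38.p6). Capitals mark matches to motif cores.
Foxa3, chr7:19023540-19023739, minus strand: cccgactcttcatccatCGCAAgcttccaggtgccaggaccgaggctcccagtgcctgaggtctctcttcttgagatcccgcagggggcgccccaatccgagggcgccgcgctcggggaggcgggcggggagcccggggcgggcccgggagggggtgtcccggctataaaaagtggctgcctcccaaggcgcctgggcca
Cebpa, chr7:35119093-35119292, plus strand: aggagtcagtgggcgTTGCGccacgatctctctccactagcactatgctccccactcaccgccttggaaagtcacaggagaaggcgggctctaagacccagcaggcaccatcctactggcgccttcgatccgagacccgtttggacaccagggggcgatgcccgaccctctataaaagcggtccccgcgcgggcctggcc
Among the cores searched on both strands as exact letters were TGTTTAC for FOXA, CAAAGT for HNF4, ATTGAT for ONECUT, TTGCG for C/EBP and GGAATG for TEAD, the DNA-binding partners of YAP. Both the Foxa3 window, at -183 to -179 from the start, and the Cebpa window, at -185 to -181, held a C/EBP core, which 12.4% of the 32851 promoter windows of this length held. Neither window held a core of FOXA (2.51% of windows), HNF4 (9.84%), ONECUT (5.18%) or TEAD (10.1%). Of the 14 annotated starts of the 9 factors, 3 held a C/EBP core and 2 an HNF4 core. Cores of FOXA, ONECUT and TEAD were each held by 1 start. These are matches of letters, and say nothing of binding in these cells.

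Hnf4a (chromosome 2, 163506811 to 163572907, NCBI gene 15378) had the highest CPM of the 9 in every library. It stood at 1065 and 1057 CPM in FH, 436 and 292 CPM in BM 1D, 366 and 500 CPM in BM 3D, and 201 and 135 CPM in BM 3W. The level dropped on the first day, overlapped between 1 and 3 days, and was lowest at 3 weeks, below all earlier libraries. The log2 fold change against FH was -1.54 ± 0.32 at 1 day (adjusted p = 0.00279), -1.29 ± 0.32 at 3 days (adjusted p = 0.00768) and -2.66 ± 0.33 at 3 weeks (adjusted p = 7.09e-05). The 1-day call ended by total counts (-0.62), and the 3-day call by total counts (-0.36), by FPKM and without BM 3D library 1, while the 3-week call held under all 24 alternatives. Between 3 days and 3 weeks 3 members fell further in BM (Hnf4a, Foxa3 and Cebpb), where 24.4% of genes were called and 10.9% fell. For Hnf4a the log2 fold change of BM 3W against BM 3D was -1.36 ± 0.32 (adjusted p = 0.0108), a call that ended without BM 3W library 2, without BM 3D library 2, or in a fit on those 4 libraries alone.

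At 3 weeks Hnf4a was higher in LBDXL and in Yap-/- cells than in BM 3W. LBDXL 3W had 919 and 993 CPM, and against BM 3W the log2 fold change was 2.51 ± 0.33 (adjusted p = 0.000240). BM 3W Yap-/- had 742 and 590 CPM, and against BM 3W the log2 fold change was 1.98 ± 0.32 (adjusted p = 0.00164). Neither group overlapped BM 3W. FH Yap-/- had 999 and 977 CPM. Neither LBDXL 3W against FH (log2 fold change -0.15 ± 0.31) nor BM 3W Yap-/- against FH Yap-/- (-0.57 ± 0.31, adjusted p = 0.175) passed. Ordered by mean, FH was highest, then FH Yap-/- and LBDXL 3W, which overlapped, then BM 3W Yap-/-, BM 3D and BM 1D, which overlapped, and BM 3W.

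**Figure D2:**
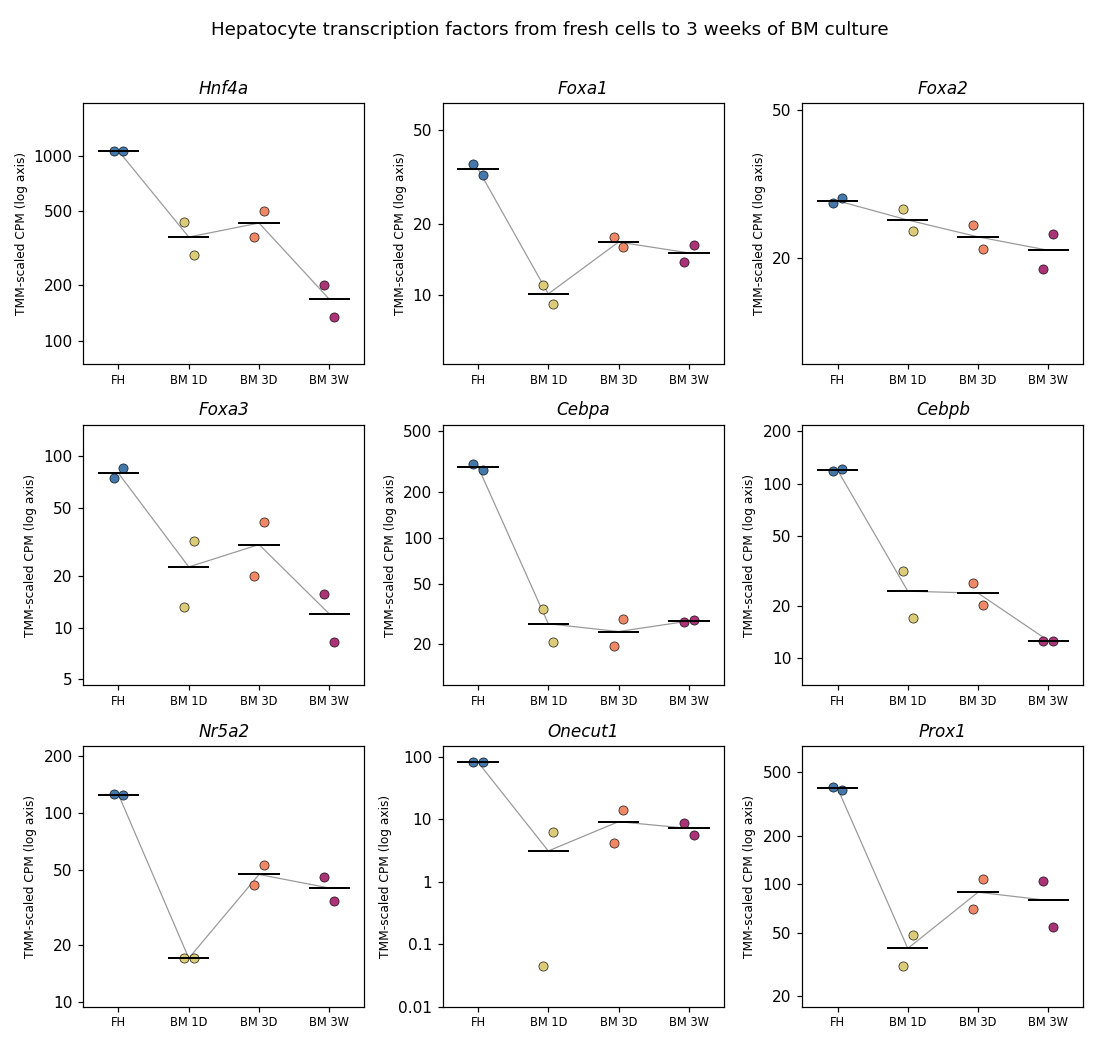
TMM-scaled CPM (log axis) of each factor in FH and after 1 day, 3 days and 3 weeks of BM culture, with 1 point per library, a bar at the mean of 2 and a grey line joining means. Cebpa fell to 33.9 and 20.8 CPM in BM 1D, against 307 and 278 CPM in FH, and stayed there, while Nr5a2 and Prox1 were lowest at 1 day.

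The FOXA genes did not move together. Foxa3 (chromosome 7, 19013283 to 19023539, NCBI gene 15377), the FOXA gene with most RNA per length in fresh cells, had 74.0 and 84.7 CPM in FH, 13.3 and 31.9 CPM in BM 1D, 19.97 and 41.0 CPM in BM 3D, and 15.7 and 8.30 CPM in BM 3W. All BM libraries were below both FH libraries, and BM groups that follow each other overlapped except that BM 3W was below BM 3D. Against FH the log2 fold change was -1.81 ± 0.45 at 1 day (adjusted p = 0.00772), -1.38 ± 0.44 at 3 days (adjusted p = 0.0287) and -2.72 ± 0.46 at 3 weeks (adjusted p = 0.000538). The 1-day call ended without BM 1D library 1, by total counts (-0.89) and by FPKM without a filter. The 3-day call ended without BM 3D library 1 or either FH library, by total counts (-0.47) and by FPKM. From 3 days to 3 weeks the log2 fold change was -1.34 ± 0.45 (adjusted p = 0.0490), and that call ended under 14 of 24 alternatives.

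Foxa3 was the member with the largest difference between BM 3W Yap-/- and BM 3W. It had 73.8 and 104 CPM in BM 3W Yap-/-, above both BM 3W libraries, with a log2 fold change of 2.89 ± 0.47 (adjusted p = 0.00162). LBDXL 3W had 58.6 and 60.8 CPM, with a log2 fold change of 2.31 ± 0.46 against BM 3W (adjusted p = 0.00240). FH Yap-/- had 70.9 and 69.0 CPM. By mean level BM 3W Yap-/- and FH led and overlapped, followed by FH Yap-/- and LBDXL 3W, then the 3 BM groups.

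Foxa1 (chromosome 12, 57540628 to 57548029, NCBI gene 15375) was lower in culture by this scaling and lay close together in the 3-week cultures. It had 35.9 and 32.3 CPM in FH, 11.01 and 9.16 CPM in BM 1D, 17.5 and 15.9 CPM in BM 3D, and 13.8 and 16.3 CPM in BM 3W. The log2 fold change against FH was -1.76 ± 0.25 at 1 day (adjusted p = 0.000285), -1.03 ± 0.24 at 3 days (adjusted p = 0.00643) and -1.18 ± 0.24 at 3 weeks (adjusted p = 0.00176). The 3-day call ended without FH library 1, by total counts and by FPKM. Only the fall at 1 day kept its call under all 24 alternatives: scaled by total counts the 3-week value was 0.12 and by FPKM it was 0.28, both not called. LBDXL 3W had 14.3 and 20.2 CPM and BM 3W Yap-/- 24.8 and 18.3 CPM, neither called against BM 3W by this scaling, but by limma on FPKM Foxa1 was called lower in LBDXL 3W than in BM 3W (-0.74, adjusted p = 0.00844). FH Yap-/- had 37.4 and 31.8 CPM.

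Foxa2 (chromosome 2, 148042877 to 148046969, NCBI gene 15376) was the member not called in BM culture against FH. It had 28.1 and 28.9 CPM in FH, 27.0 and 23.6 CPM in BM 1D, 24.5 and 21.1 CPM in BM 3D, and 18.7 and 23.2 CPM in BM 3W. LBDXL 3W had 23.5 and 23.4 CPM, BM 3W Yap-/- 22.8 and 22.7 CPM, and FH Yap-/- 42.9 and 35.2 CPM. The cultured libraries were below FH, by a log2 fold change of -0.44 ± 0.19 in BM 3W (adjusted p = 0.0689), yet scaled by total counts Foxa2 was higher in BM 3W by 0.86 (adjusted p = 0.00662). Relative to the median of all genes the change was -0.61 by TMM and -0.60 by total counts. The BM 3W Yap-/- libraries were below FH Yap-/- (log2 fold change -0.78 ± 0.19, adjusted p = 0.00940), a call that ended without FH Yap-/- library 1, by total counts and by FPKM. Foxa2 and Foxa1 are also expressed in bile duct cells, whose summed markers are given above.

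Per transcript length, by the authors' deposited FPKM, which divides by library size and transcript length, the make-up of the FOXA genes changed with culture. Foxa3 made up 67.9 and 70.9% of their summed FPKM in FH, 36.1 and 59.3% in BM 1D, 43.2 and 62.8% in BM 3D, and 45.5 and 22.7% in BM 3W. Its share was 72.6 and 68.4% in LBDXL 3W. In BM 3W Yap-/- the share was 73.9 and 78.3%, against 60.9 and 63.3% in FH Yap-/-. Both BM 3W libraries were below all libraries of LBDXL 3W, BM 3W Yap-/- and fresh cells. Foxa2 took 19.3 and 19.3% in LBDXL 3W, against 35.6 and 49.5% in BM 3W, and it took 16.9 and 16.7% in FH. A share within these 3 genes shows unequal change, and with 2 libraries a group no test was made.

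**Figure D3:**
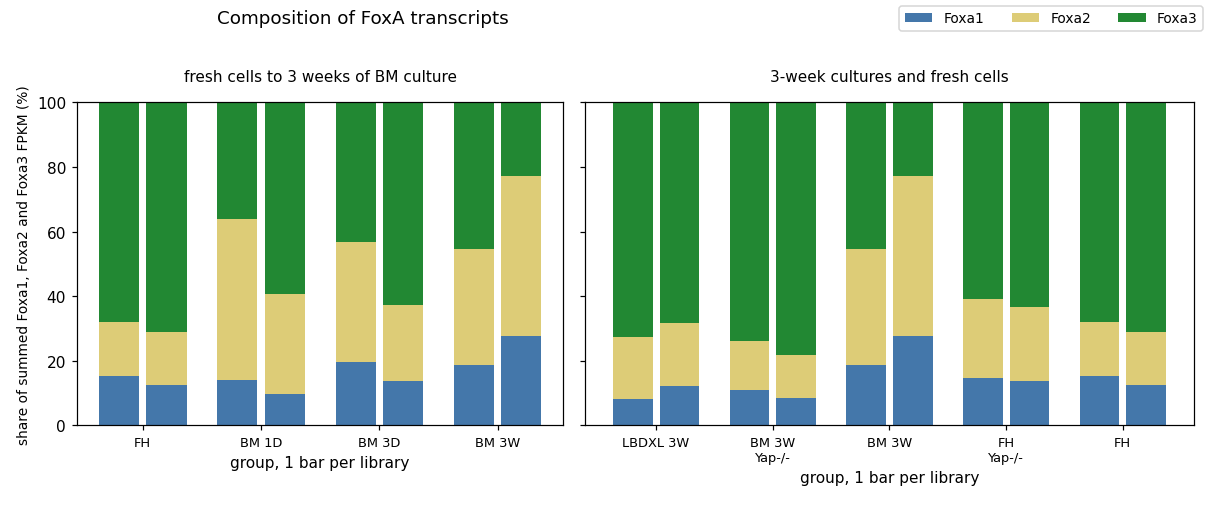
Share of the summed FPKM of Foxa1, Foxa2 and Foxa3 held by each gene, with 1 bar per library. Foxa3 held 45.5 and 22.7% in BM 3W, against 67.9 and 70.9% in FH.

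Cebpa (chromosome 7, 35119293 to 35121928, NCBI gene 12606), a driver of metabolic genes and a brake on proliferation, fell early and stayed low in BM. It had 307 and 278 CPM in FH, 33.9 and 20.8 CPM in BM 1D, 19.4 and 29.2 CPM in BM 3D, and 28.2 and 28.7 CPM in BM 3W. The BM groups overlapped each other and all lay far below FH, with a log2 fold change of -3.42 ± 0.41 at 1 day (adjusted p = 0.000114), -3.59 ± 0.42 at 3 days (adjusted p = 0.000138) and -3.36 ± 0.41 at 3 weeks (adjusted p = 6.52e-05). All 3 calls held under the 24 alternatives.

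Cebpa was higher in both other 3-week cultures than in BM 3W. LBDXL 3W had 80.6 and 170 CPM, far apart but both above BM 3W, with a log2 fold change of 2.14 ± 0.39 (adjusted p = 0.00157) that was not called by FPKM. BM 3W Yap-/- had 44.9 and 76.0 CPM, with a log2 fold change of 1.09 ± 0.38 against BM 3W. FH Yap-/- had 255 and 246 CPM. In order of mean, the 4 groups above BM 3W were FH, FH Yap-/-, LBDXL 3W and BM 3W Yap-/-, with no overlap between neighbours. LBDXL 3W remained below FH (log2 fold change -1.22 ± 0.38, adjusted p = 0.0417 by edgeR's test). That call ended under 12 of 24 alternatives, among them total counts, FPKM and a fit on the compared libraries. The rest were fits without a library of FH, FH Yap-/- or BM 3W, or without LBDXL 3W library 1.

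Cebpb (chromosome 2, 167688915 to 167690432, NCBI gene 12608), known for its role in the acute phase response and liver regeneration and also expressed in macrophages, was low in every culture. It had 118 and 121 CPM in FH, 31.4 and 17.0 CPM in BM 1D, 26.9 and 20.3 CPM in BM 3D, and 12.6 and 12.6 CPM in BM 3W. Against FH the log2 fold change was -2.30 ± 0.29 at 1 day (adjusted p = 0.000142), -2.34 ± 0.29 at 3 days (adjusted p = 0.000190) and -3.25 ± 0.30 at 3 weeks (adjusted p = 1.43e-05). By FPKM the 3-day call ended, and with a pseudocount of 1 the 1-day call ended too. The 3-week call held under all 24 alternatives. The BM 3W libraries were below those of 3 days by a log2 fold change of -0.91 ± 0.28 (adjusted p = 0.0377), a call that ended under 15 of 24 alternatives.

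At 3 weeks Cebpb had 33.1 and 24.2 CPM in LBDXL 3W and 32.9 and 33.2 CPM in BM 3W Yap-/-, each pair above BM 3W. The log2 fold change against BM 3W was 1.19 ± 0.28 in LBDXL 3W (adjusted p = 0.00647), where by FPKM it was -0.29 and not called, and 1.39 ± 0.28 in BM 3W Yap-/- (adjusted p = 0.00476), where by FPKM it was 0.63 and not called. Total counts ended both calls. FPKM and counts differed most in LBDXL 3W library 2, with 13.4 FPKM at 401 counts, against 52.6 FPKM at 627 counts in library 1. Fresh FH Yap-/- cells had 86.5 and 70.0 CPM, below both FH libraries. Cebpb lies on the opposite strand to Tmem189, and the sources used here do not give whether counting used strand, so reads of the 2 genes cannot be told apart. The same holds for Hnf4a and Hnf4aos, Cebpa and Gm45091, and Prox1 and Prox1os or Gm28172, and Onecut1 shares its strand with Gm20649.

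Nr5a2 (chromosome 1, 136842562 to 136960448, NCBI gene 26424), a nuclear receptor that promotes bile acid and cholesterol transport genes, was lowest at 1 day and partly came back. It had 126 and 125 CPM in FH, 17.2 and 17.1 CPM in BM 1D, 41.8 and 53.1 CPM in BM 3D, and 46.1 and 34.3 CPM in BM 3W. Between 1 and 3 days it rose by a log2 fold change of 1.47 ± 0.24 (adjusted p = 0.00859), the 1 member called there, where 5.26% of genes were called, 3.67% higher and 1.6% lower. That call ended without BM 1D library 1 and in a fit on the 4 libraries alone, which called 0 of 12512 genes. Without BM 1D library 2 Onecut1 was called as well. Against FH the log2 fold change was -2.87 ± 0.25 at 1 day (adjusted p = 2.18e-05), -1.40 ± 0.24 at 3 days (adjusted p = 0.00102) and -1.64 ± 0.24 at 3 weeks (adjusted p = 0.000189), and the calls at 3 days and 3 weeks ended by total counts and by FPKM.

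In LBDXL 3W Nr5a2 had 86.3 and 77.1 CPM, above BM 3W by a log2 fold change of 1.02 ± 0.23 (adjusted p = 0.00531), a call that ended without BM 3W library 2, by total counts, where the value was 0.22, and by FPKM. BM 3W Yap-/- had 62.5 and 40.4 CPM, overlapping BM 3W. FH Yap-/- had 110 and 110 CPM.

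Prox1 (chromosome 1, 190118035 to 190170827, NCBI gene 19130), a homeodomain factor needed for liver growth in the mouse embryo and also a marker of lymphatic endothelium, followed a similar course. It had 405 and 389 CPM in FH, 31.0 and 48.6 CPM in BM 1D, 70.3 and 108 CPM in BM 3D, and 105 and 53.8 CPM in BM 3W. The log2 fold change against FH was -3.32 ± 0.42 at 1 day (adjusted p = 0.000140), -2.15 ± 0.40 at 3 days (adjusted p = 0.00166) and -2.33 ± 0.40 at 3 weeks (adjusted p = 0.000556). LBDXL 3W had 179 and 156 CPM, with a log2 fold change of 1.08 ± 0.38 against BM 3W, and BM 3W Yap-/- had 157 and 84.8 CPM, overlapping BM 3W. FH Yap-/- had 251 and 227 CPM. Nr5a2 and Prox1 had the closest pattern of any pair among the 9, with a root mean square difference of 0.24 between their centred log2 CPM over the 7 group means, followed by Hnf4a and Foxa3 at 0.36.

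Onecut1 (chromosome 9, 74861921 to 74889648, NCBI gene 15379), the cut-homeodomain factor HNF6, was low in every culture. It had 1043 and 1030 counts in FH, 1 and 119 counts in BM 1D, 103 and 288 counts in BM 3D, and 251 and 190 counts in BM 3W. LBDXL 3W had 125 and 88 counts, BM 3W Yap-/- 139 and 24 counts, and FH Yap-/- 1329 and 983 counts. In CPM this was 82.9 and 81.5 in FH and at most 14.2 in any cultured library, and cultured groups overlapped from one to the next. The log2 fold change against FH was -4.74 ± 1.21 at 1 day (adjusted p = 0.00919), -3.17 ± 1.11 at 3 days (adjusted p = 0.0414), -3.52 ± 1.13 in BM 3W (adjusted p = 0.0196), -4.36 ± 1.19 in BM 3W Yap-/- (adjusted p = 0.0135) and -3.78 ± 1.15 in LBDXL 3W (adjusted p = 0.0381). Without BM 1D library 2 the 1-day value was -10.64, resting on the 1 count of library 1. The 3-day call ended under 10 of 24 alternatives, among them without any single library of BM 3D, BM 3W, FH or FH Yap-/-. The call in BM 3W ended without either library of BM 3W or of FH, by total counts and by limma on log2(FPKM + 0.1). The call in LBDXL 3W ended without either library of LBDXL 3W, FH or FH Yap-/-, without BM 3W library 2 and by limma on log2(FPKM + 0.1). That in BM 3W Yap-/- ended without its library 2. Against BM 3W, neither LBDXL 3W (log2 fold change -0.26 ± 1.06) nor BM 3W Yap-/- (-0.84 ± 1.08) was called.

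**Figure D4:**
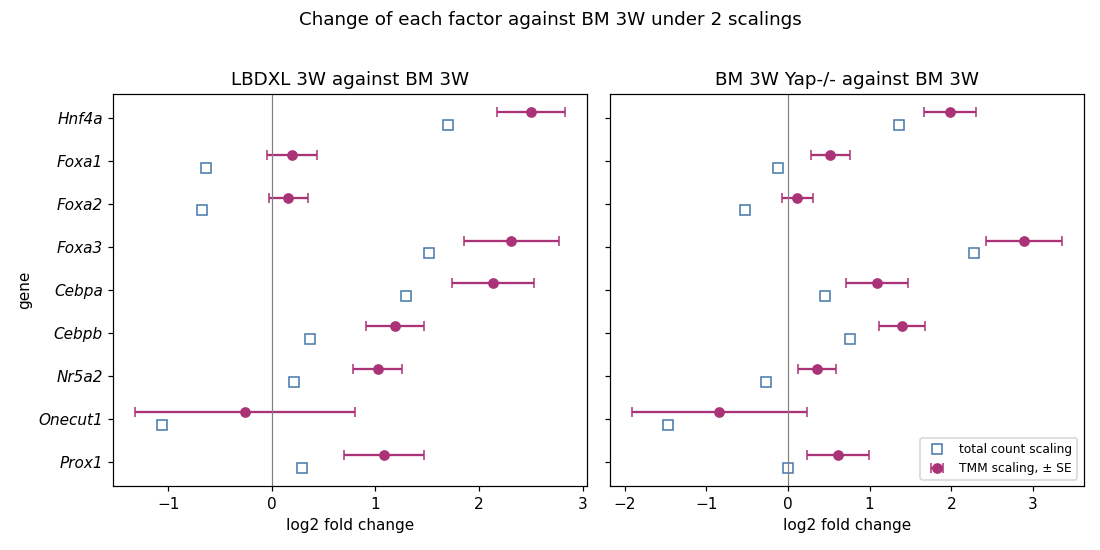
Log2 fold change of each factor in LBDXL 3W and in BM 3W Yap-/- against BM 3W, with TMM scaling (filled circles, ± standard error) and with total counts (open squares). Hnf4a, at 2.51 and 1.98, and Foxa3, at 2.31 and 2.89, stood above 0 under both scalings, while Foxa1 and Foxa2 lay above 0 by TMM and below 0 by total counts. In BM 3W Yap-/- so did Nr5a2 (0.36 by TMM and -0.27 by total counts) and Prox1 (0.61 and -0.0029).

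In fresh cells the Yap-/- label went with no called member, where 0.943% of genes were called, 0.489% higher and 0.454% lower. There 2 members, Foxa2 (log2 fold change 0.46 ± 0.19) and Cebpb (-0.61 ± 0.28), were under 0.05 before adjustment by edgeR's test, and DESeq2 called 0. A fit on these 4 libraries alone called 5, where 37.4% of genes were called: Foxa2 higher in FH Yap-/-, and Cebpa, Cebpb, Nr5a2 and Prox1 lower.

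Whether the change over 3 weeks of BM culture differed with the Yap-/- label was tested by an interaction, which called Hnf4a, Foxa3 and Cebpb of the 9, where 16.9% of genes were called, 8.04% with a higher and 8.84% with a lower value in Yap-/- cells. The log2 change was higher in Yap-/- cells by 2.09 ± 0.44 for Hnf4a (adjusted p = 0.0116), by 2.004 ± 0.39 for Cebpb (adjusted p = 0.00850) and by 3.07 ± 0.63 for Foxa3 (adjusted p = 0.00999). The call of Cebpb ended by total counts and by FPKM, where the value was 1.02, and Foxa2 was called lower in both. Without FH Yap-/- library 2 only Foxa3 was called. Without FH Yap-/- library 1 or FH library 2 the call of Hnf4a ended.

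FPKM divides by transcript length, and the order of the factors below is that of the deposited FPKM. For Cebpa and Cebpb the order depends on the measure. Cebpa over Cebpb was 2.59 and 2.29 by counts, which are not divided by length, and 0.72 and 0.64 by FPKM in FH. In BM 3W the ratios were 2.24 and 2.28 by counts and 0.53 and 0.78 by FPKM. Not every library followed this. LBDXL 3W library 2 had 7.01 by counts and 3.79 by FPKM, and BM 3D library 1 had 0.72 by counts and 0.18 by FPKM. Which measure is nearer the RNA levels of these genes was not tested. In LBDXL 3W Hnf4a was highest at 149.7 and 155 FPKM and Onecut1 lowest at 2.35 and 2.16 FPKM. In BM 3W Hnf4a stood at 50.9 and 38.5 FPKM, Cebpb at 36.8 and 29.6 FPKM and Cebpa at 19.3 and 23.0 FPKM, while Onecut1 was lowest at 5.28 and 4.37 FPKM. In FH the highest were Hnf4a at 118 and 117 FPKM and Cebpb at 110 and 115 FPKM, followed by Cebpa at 78.8 and 72.9 FPKM, and Foxa1 was lowest at 6.07 and 5.47 FPKM.

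Other liver transcription factors and known target genes were counted from lists chosen by function. Of 24 other liver-enriched transcription factors, 1 was higher and 18 were lower in BM 3W than in FH, with a median log2 fold change of -2.26. In LBDXL 3W 13 were higher and 1 lower than in BM 3W, with a median of 1.20, and in BM 3W Yap-/- 10 were higher and 3 lower, with a median of 0.58. Klf15, a factor of the fasting response, averaged 193 ± 114 CPM in LBDXL 3W and 82.4 ± 10.3 CPM in BM 3W Yap-/-, against 6.92 ± 4.37 CPM in BM 3W (SD, n = 2 each). It was called in both comparisons.

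Textbook HNF4A targets, 22 genes, had 20 lower and 0 higher in BM 3W than in FH (median -4.07). In LBDXL 3W 19 were higher and 0 lower than in BM 3W (median 3.74), and in BM 3W Yap-/- 14 were higher and 1 lower (median 2.42). Coagulation factor gene F7 averaged 99.6 ± 33.3 CPM in LBDXL 3W and 76.7 ± 13.3 CPM in BM 3W Yap-/-, against 6.93 ± 4.42 CPM in BM 3W. Of 12 textbook C/EBP targets, 12 were lower in BM 3W than in FH (median -5.92), 11 were higher in LBDXL 3W than in BM 3W (median 3.77) and 10 were higher in BM 3W Yap-/- (median 3.04). Arg1, which encodes the last enzyme of the urea cycle, averaged 2536 ± 341 CPM in LBDXL 3W and 356 ± 0.760 CPM in BM 3W Yap-/-, against 96.2 ± 4.68 CPM in BM 3W.

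Among 8 tested of 9 textbook FOXA targets, 6 were lower and 1, Afp, the fetal alpha-fetoprotein gene, was higher in BM 3W than in FH. In LBDXL 3W 6 were higher and Afp lower than in BM 3W, while 4 were higher in BM 3W Yap-/- than in BM 3W. Of 7 tested of 8 textbook NR5A2 targets, 7 were lower in BM 3W than in FH, while 5 in LBDXL 3W and 3 in BM 3W Yap-/- were higher than in BM 3W. Cyp7a1, the rate-limiting enzyme of bile acid synthesis, had 260 and 2227 counts in LBDXL 3W, against 32 and 3 counts in BM 3W. These lists share genes, among them Tat and Pck1 (C/EBP and FOXA) and Cyp7a1 and Cyp8b1 (HNF4A and NR5A2). The comparisons were BM 3W with FH, LBDXL 3W with BM 3W and BM 3W Yap-/- with BM 3W. In that order the median log2 fold change was -4.18, 3.02 and 2.48 for the FOXA list and -6.30, 3.25 and 1.46 for the NR5A2 list. It was 0.17, -0.02 and -0.03 for all tested genes. Of these 33%, 21.1% and 15% were called higher and 26.1%, 23.7% and 16.6% lower.

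The genes whose pattern over the 7 group means was most like each factor, among 10117 candidates, differed from factor to factor. Closest to Hnf4a were Atl2, Coq9 and Sec24a (root mean square difference 0.11 to 0.17), and closest to Foxa3 were Emc9, Tmprss6 and Akr7a5 (0.22 to 0.23). Foxa1 lay nearest Slc12a7, Hhex and Scarb2, and Foxa2 nearest Ppil4, Top1 and Trmt1l. Cebpa lay nearest Mpv17l, Slc25a42 and Dcxr, and Cebpb nearest Acy1, Serpinf1 and Fh1. For Nr5a2 these were Abca1, St6galnac6 and Klc4, for Prox1 Tesk2, Smarca2 and Auh, and for Onecut1 Naaladl2, Syt1 and B3galt1, which were the least alike at 0.38 to 0.56.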

How the data were processed

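RNA-seq of 14 libraries in 7 groups of 2 was analysed. The authors deposited raw counts per gene, and also FPKM values of each library. Tools named by the submitters' processing notes are HTSeq, HISAT2, Trimmomatic, DESeq and Cufflinks, with the build GRCm38.p6, and per the labels' protocols libraries were made with a TruSeq Stranded mRNA kit. The sources used here do not give whether counting used strand. The test was that of edgeR 4.0.16 (R 4.3.3), after filterByExpr had removed low genes: counts were scaled by TMM and fitted in 1 model with a mean per group, and contrasts were tested by the quasi-likelihood F-test with Benjamini-Hochberg adjustment over 14100 genes. Totals ran from 15501005 to 21220365 counts. Alternatives used DESeq2 1.42.0, limma 3.58.1 on log2(FPKM + pseudocount) with pseudocounts of 1 and 0.1, other scalings, fits on the compared libraries, a replicate block and leaving out each library. The members, lists and tests were chosen with earlier results of these data known. Named genes were the members, up to 4 list genes by smallest p in a comparison, and the 3 genes most like each member. Some genes of the lists are not reported here by name. Figures were drawn with matplotlib 3.10.9 in Python 3.11.15.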

Additional observations from a re-analysis of the deposited data

Results flagged for a closer look

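For 3 factors the change over 3 weeks of BM culture in Yap-/- cells differed from that in cells without the label, by the interaction term of edgeR's fit. The difference in log2 fold change was 2.09 for Hnf4a, 3.07 for Foxa3 and 2.004 for Cebpb. Hnf4a changed by -0.57 in BM 3W Yap-/- against FH Yap-/- and by -2.66 in BM 3W against FH. Foxa3 changed by 0.35 and -2.72 in those comparisons, and Cebpb by -1.24 and -3.25. The difference for Cebpb was no longer called by total counts, by FPKM (1.02) or without FH Yap-/- library 2, and that for Hnf4a was no longer called without either FH Yap-/- library or FH library 2. The summed stellate cell and fibroblast markers, 472 to 547 CPM in BM 3W Yap-/- and 11563 to 15087 CPM in BM 3W, moved with the label too, and their part in the result was not tested.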

How the results depend on the processing

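Of 58 member calls, 20 held under all 24 alternatives, and a sign change was read as a reversal only where 1 of the 2 values was called. Scaling by total counts moved the median gene by -0.82 to 1.29 on the log2 scale. It put Foxa2 higher against FH by 0.75 in BM 1D, 0.64 in BM 3D and 0.86 in BM 3W and lower in LBDXL 3W against BM 3W by -0.67, and Foxa1 at 0.12 in BM 3W against FH. By limma on log2(FPKM + 1), with and without a filter, and on log2(FPKM + 0.1), Foxa2 against FH was at 0.58 and 0.64 in BM 1D, 0.58 and 0.64 in BM 3D, and 0.82 and 0.90 in BM 3W. Foxa1 against FH was at 0.0873 and 0.0976 in BM 3D, 0.28 and 0.32 in BM 3W, and 0.0842 and 0.10 in BM 3W Yap-/-. In LBDXL 3W against BM 3W, Foxa1 was at -0.74 and -0.87, Foxa2 at -0.73 and -0.80, and Cebpb at -0.29 and -0.31. The cause was not tested.

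Members called, in either direction, moved as follows. By total counts they were 4 in BM 3D against FH (3 lower and Foxa2 higher), 2 in BM 3W Yap-/- against FH Yap-/-, 2 in LBDXL 3W against FH, 1 in BM 3W against BM 3D and 2 in BM 3W Yap-/- against BM 3W. Of all 14100 genes 8613, 6471, 4415, 3244 and 5851 were called in those comparisons. By FPKM with pseudocounts of 1 and 0.1 and without a filter they were 4, 3 and 3 in BM 3D against FH (3, 2 and 3 lower), 3 each in BM 3W Yap-/- against FH Yap-/-, 2, 1 and 1 in LBDXL 3W against FH, 1 each in BM 3W against BM 3D and 2 each in BM 3W Yap-/- against BM 3W. With the filter and a pseudocount of 1, 7526, 5403, 3468, 3138 and 5361 of all 11539 genes were called in those comparisons. In LBDXL 3W against BM 3W, 6 higher and 0 lower became 3 higher and 1 lower by total counts and 2 higher and 2 lower by each FPKM fit. They were also 3 and 3 with a filter in BM 3D against BM 1D, and 1 without a filter in LBDXL 3W against BM 3W Yap-/-. In fits on the compared libraries they were 3 in LBDXL 3W against FH, 0 in BM 3D against BM 1D, 0 in BM 3W against BM 3D and 5 in FH Yap-/- against FH. Over all genes those fits called 1759 of 11715, 0 of 12512, 2447 of 13567 and 4251 of 11356. DESeq2 called 2 members in BM 3D against BM 1D, where it called 1736 of 14100 genes. Its size factors left 1 member in BM 3W against BM 3D, where 3161 genes were called.

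Leaving out 1 library gave 5 to 8 members in BM 3D against FH, 2 to 7 in BM 3W Yap-/- against FH Yap-/-, 3 to 6 in BM 3W Yap-/- against FH, 1 to 6 in LBDXL 3W against FH, 0 to 2 in BM 3D against BM 1D, 0 to 3 in BM 3W against BM 3D, 0 to 1 in LBDXL 3W against BM 3W Yap-/- and 1 to 3 in the interaction. A lone library was assumed to vary like the other groups. The number of all tested genes called also moved between these fits. In BM 3W against BM 3D, 0 were called without BM 3W library 2, and 1 without BM 3D library 2, BM 3W Yap-/- library 2 or any single fresh library. The correlation of deviations between same-numbered libraries was -0.02 to 0.46 over 21 pairs of groups, with a median of 0.02 and 5 above 0.1. Most pairs of groups thus gave little sign that the numbers pair libraries, but not all. A replicate block ended 1 call, Foxa3 in BM 3W against BM 3D, leaving 2.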
